A study of Mus musculus with 18 samples.

Results

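Cerebellins are small secreted proteins that organise synapses, and delta glutamate receptors are postsynaptic proteins that some of them bind. The 4 genes described here are Cbln1, Cbln2 and Cbln4, which encode cerebellins, and Grid1, which encodes a delta receptor. They are 4 of the 37620 annotated genes in the count tables, taken by gene symbol, and all 4 had enough reads to be tested. Cbln2 was chosen by its rise in DP against PP in these same libraries, so its values are given as a description with no p-value. The other members were listed with earlier results of these data known.

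RNA came from the lateral cortex of C57BL/6 mouse embryos at embryonic day 14.5, whose genotype label gives reporters at Btg2 and at Tubb3. Btg2 restrains cell division and comes on in progenitors that will next make neurons, and Tubb3 is a neuronal tubulin. Every fraction came from embryos of this same genotype, without treatment: PP, the proliferating progenitors negative for the Btg2 reporter; DP, the differentiating progenitors positive for it; and Neuron, the cells positive for the Tubb3 reporter. The Btg2 fractions are marked RFP in the titles, while the genotype label names GFP for both reporters. Each of the 3 libraries of a fraction was a pool of more than 3 embryos, so a library is a replicate and an embryo is not, and the sorting reporters, not lineage, define the fractions. Meninges and ganglionic eminences, the source of cortical interneurons, had been removed.

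Cerebellins carry a C1q-like domain and assemble into multimers, and Cbln1 and Cbln2 are known to bridge the synaptic cleft between presynaptic neurexins and postsynaptic delta receptors. Cbln1 is best known from the cerebellum, where granule cells release it and Purkinje cells bind it through a delta receptor. Grid1 is widely expressed in the forebrain, and Cbln4 is known to bind the netrin receptors Dcc and neogenin as well as neurexins. None of the delta receptors acts as an ordinary glutamate-gated channel.

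Libraries held 34337209 to 55935128 counts. Marker sums followed the labels. In CPM (counts scaled to the TMM-adjusted library total), the sum of 8 proliferating progenitor markers ran from 5400 to 6320 in PP, 2490 to 3630 in DP and 298 to 380 in Neuron. The sum of 5 differentiating progenitor markers ran from 1180 to 1220, 2660 to 3770 and 512 to 590 CPM, and that of 6 neuron markers from 116 to 276, 1560 to 2190 and 7630 to 8160 CPM. DP held neuron marker RNA at a level between those of PP and Neuron. In bulk samples such as these, fewer cells of a type and less RNA per cell cannot be told apart. Red blood cell markers summed to 5360 to 10000 CPM in PP and at most 77.3 CPM elsewhere. Libraries carry the numbers of their count columns (L222, L355 and L393 for PP, L223, L356 and L394 for DP, L224, L357 and L395 for Neuron).

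Across the fractions the 4 genes followed 3 different courses. Cbln1 rose a little in DP and by 10.4-fold in Neuron. Cbln2 and Cbln4 were lowest in PP, stood 17.6-fold and 24.6-fold higher in DP, and had levels in Neuron that overlapped those in DP. Grid1 was present in every fraction, lowest in DP and highest in Neuron. Differences below are fitted with edgeR, with adjusted p from its quasi-likelihood test (Benjamini-Hochberg over 18627 features).

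**Figure D1:**
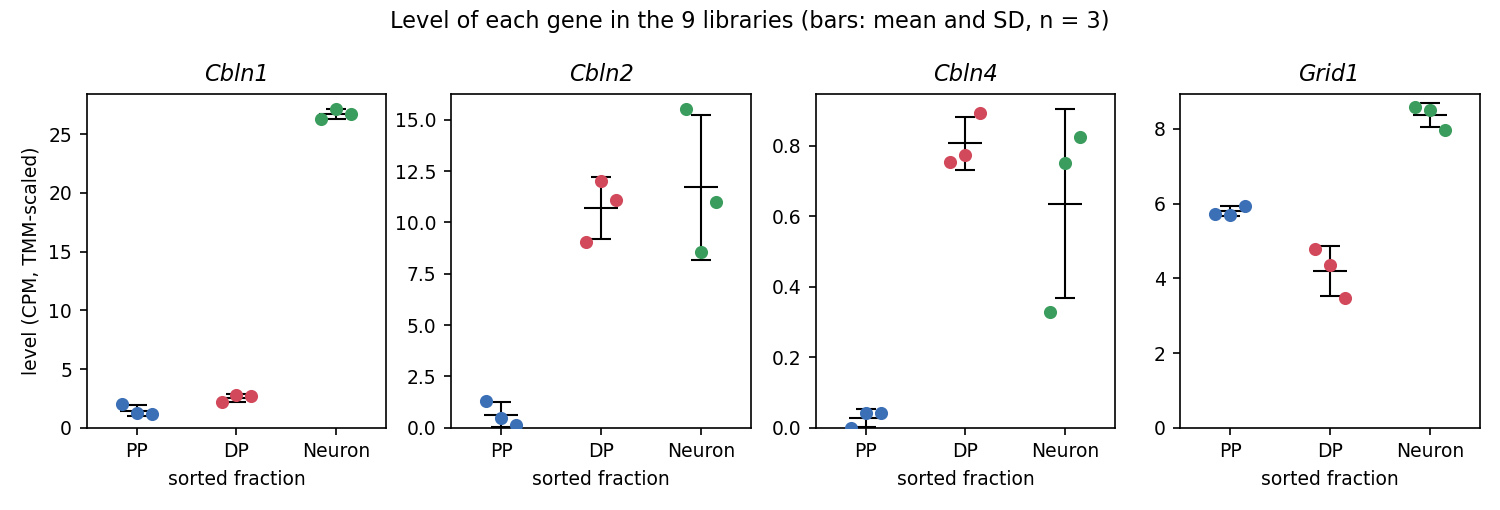
Level of Cbln1, Cbln2, Cbln4 and Grid1 (y axis, CPM, TMM-scaled, a separate scale for each gene, starting at 0) in the sorted fractions PP, DP and Neuron (x axis). Points are the 3 libraries of a fraction, and bars are the mean and SD (n = 3). Cbln1 stands apart in Neuron at 26.3 to 27.1 CPM, and Grid1 is lowest in DP at 3.47 to 4.78 CPM. Cbln2 (0.144 to 1.32 CPM) and Cbln4 (0 to 0.0427 CPM) are lowest in PP.

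Cbln1 (ENSMUSG00000031654) lies on chromosome 8 from 89992761 to 89996508 on the minus strand in mm9, with 3 exons that sum to 2343 bases. Its level was 1.99, 1.28 and 1.15 CPM in the PP libraries L222, L355 and L393. It was 2.17, 2.77 and 2.73 CPM in the DP libraries L223, L356 and L394, and 26.3, 27.1 and 26.7 CPM in the Neuron libraries L224, L357 and L395. The Neuron libraries lay far above the rest and close to each other, and no library of one fraction reached into another. Group means were 1.47 ± 0.45, 2.55 ± 0.337 and 26.7 ± 0.441 CPM (SD, n = 3).

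The rise of Cbln1 from PP to DP was 1.76-fold (log2 0.82 ± 0.19 SE, edgeR adjusted p = 0.00445), in a comparison in which 21.3% of all features were called higher in DP. From DP to Neuron the gene rose 10.4-fold (log2 3.38 ± 0.17, edgeR adjusted p = 5.95e-09), where 33.1% of features were called higher. Neuron stood 18.4-fold above PP (log2 4.20 ± 0.18, edgeR adjusted p = 1.11e-09), with 36.7% of features called higher. For Cbln1, the authors' deposited table lists log2 fold changes of 0.82 from PP to DP and 3.4 from DP to Neuron.

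A second identifier with the symbol Cbln1 (ENSMUSG00000090275, 1818 exon bases) overlaps the first on the same strand. The 1581 exon bases they share make up 87.0% of the second and 67.5% of the first. It followed the same course, with means of 1.17, 2.03 and 21.9 CPM and log2 differences of 0.83 and 3.43 (edgeR adjusted p = 0.00539 and 6.86e-09). The sources used here do not say how a read in the shared stretch was assigned. The level of Cbln1 relative to other genes is therefore uncertain, while its differences between fractions compare like with like. Exons of Cbln2, Cbln4 and Grid1 overlap no other annotated exon.

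Cbln2 (ENSMUSG00000024647) lies on chromosome 18 from 86880502 to 86887675 on the plus strand in mm9, with 6 exons that sum to 2894 bases. Its level was 1.32, 0.47 and 0.144 CPM in the PP libraries L222, L355 and L393, from 49, 22 and 7 reads. It reached 9.04, 12 and 11.1 CPM in the DP libraries L223, L356 and L394, and 15.5, 8.57 and 11.0 CPM in the Neuron libraries L224, L357 and L395. PP stood apart from both other fractions in every library, while DP and Neuron overlapped. The separation of PP from DP was a condition of the rule that chose Cbln2. Means were 0.643 ± 0.605, 10.7 ± 1.5 and 11.7 ± 3.54 CPM (SD, n = 3), so the spread in PP was 94.0% of its mean.

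The fitted difference of Cbln2 was 17.6-fold from PP to DP (log2 4.14 ± 0.46 SE) and 1.09-fold from DP to Neuron (log2 0.13 ± 0.35, and -0.13 without Neuron library L224). It was the value from PP to DP that selected the gene: it ranked 9 among annotated genes past the threshold as higher in DP, with at least 10 CPM there and no overlap between libraries. Plcb1, a phospholipase, ranked 10 at 17.5-fold, just inside the rule that took 10 genes, and Slc17a7, a vesicular glutamate transporter, ranked 11 at 17.5-fold, just outside it. The size of the difference rested on the PP libraries: without L222 the log2 difference was 5.12, and without L393 it was 3.64. The same libraries moved the difference between Neuron and PP, from log2 4.27 to 5.25 without L222 and to 3.77 without L393. Counts of the single-read run and of the paired-end run gave the same order of the PP libraries, with 23 and 26 reads in L222, 9 and 13 in L355 and 4 and 3 in L393. For Cbln2, the authors' deposited table lists log2 fold changes of 3.82 and 0.15 at these steps.

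Neuron marker RNA moved with Cbln2 and Cbln1 between the libraries of PP and between those of DP. The sum of 6 neuron markers was 276, 163 and 116 CPM in the PP libraries L222, L355 and L393, and 1560, 2190 and 1830 CPM in the DP libraries L223, L356 and L394. This is the order of Cbln2 and of Cbln1 within PP and within DP. In the Neuron libraries L224, L357 and L395 the sum was 8070, 8160 and 7630 CPM, an order that neither Cbln2 nor Cbln1 shared. Single markers of the sum differed in this. Dcx had the order of Cbln2 there, at 2790, 2620 and 2650 CPM. Tubb3 did not, at 2470, 2590 and 2090 CPM. All 6 markers passed the test as higher in DP than in PP, against 21.3% of all features.

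Markers of interneurons and the ventral telencephalon (7 genes, 3 of which passed as higher in DP, against 21.3% of all features) also differed between libraries. They summed to 52.2, 17.0 and 5.24 CPM in the PP libraries L222, L355 and L393, to 91.1 and 28.9 CPM in the DP libraries L356 and L394, higher still in L223, and to 421 to 454 CPM in Neuron. Their order in PP was that of Cbln2 and of Cbln1, and their order in DP was that of neither. In the Neuron libraries L224, L357 and L395 they summed to 454, 421 and 433 CPM, the order of Cbln2 but not of Cbln1. Markers of Cajal-Retzius cells, the earliest neurons of the cortical surface, summed to 8.24, 5.98 and 4.6 CPM in L222, L355 and L393 of PP. They summed to 76.3, 90.2 and 78.8 CPM in the DP libraries L223, L356 and L394, and to 868 to 986 CPM in Neuron. Like the neuron marker sum, they had the order of Cbln2 and of Cbln1 within PP and within DP, but not in Neuron. Of these 7 markers, 6 passed as higher in DP than in PP (median log2 difference 4.16), against 21.3% of all features. From DP to Neuron 6 of 7 passed as higher, against 33.1% of all features. Markers of the cortical hem and choroid plexus, at the medial edge of the cortex, summed to 23.6 to 60.4 CPM in PP, 95 to 131 CPM in DP and 55.5 to 66.6 CPM in Neuron. Of these 7, 6 passed as higher in DP than in PP, with a median log2 difference of 3.45, beside 4.14 for Cbln2 and 4.62 for Cbln4. From DP to Neuron 6 passed as lower and 1 as higher, where 34.2% of features were called lower. No marker on these 4 lists was at 0 in all libraries. Their part in the differences of the 4 genes was not tested.

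**Figure D2:**
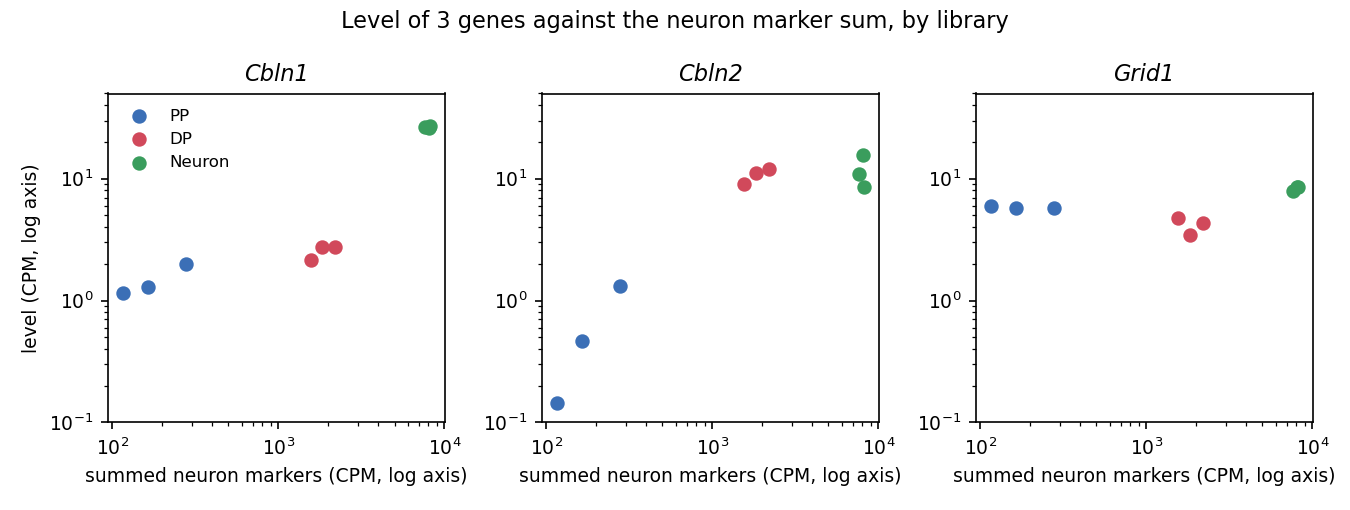
Level of Cbln1, Cbln2 and Grid1 (y axis, CPM, log axis) against the summed level of 6 neuron markers (x axis, CPM, log axis), with 1 point per library coloured by fraction (3 each of PP, DP and Neuron). Cbln2 and Cbln1 follow the marker sum within PP and within DP, Cbln2 is at 8.57 to 15.5 CPM in Neuron where the sum is 7630 to 8160 CPM, and Grid1 is lowest in DP. Cbln4, which did not follow the sum within PP or within DP, is not plotted.

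Cbln4 (ENSMUSG00000067578) lies on chromosome 2 from 171861733 to 171868966 on the minus strand in mm9, with 3 exons that sum to 2902 bases. It had the fewest reads of the 4 genes, 196 in all. The PP libraries L222, L355 and L393 held 0, 2 and 2 reads (0, 0.0427 and 0.0411 CPM), the DP libraries L223, L356 and L394 held 32, 40 and 37 (0.753, 0.775 and 0.892 CPM), and the Neuron libraries L224, L357 and L395 held 14, 37 and 32 (0.328, 0.752 and 0.824 CPM). PP lay below both other fractions in every library, and Neuron overlapped DP, with L224 lowest.

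The fitted rise of Cbln4 from PP to DP was 24.6-fold (log2 4.62 ± 0.56 SE, edgeR adjusted p = 5.45e-05). With so few reads in PP its size is imprecise: the 109 reads of DP against 4 of PP give a ratio of 26.7 after scaling, with an exact 95% interval of 10.1 to 99.7 that covers counting error only. Neuron stood above PP by 19.4-fold (log2 4.28 ± 0.58, edgeR adjusted p = 3.04e-05). Between DP and Neuron the log2 difference was -0.34 ± 0.34 (edgeR adjusted p = 0.393), and the read ratio of 0.789 had an exact 95% interval of 0.586 to 1.06. Without Neuron library L224 that log2 difference was -0.03. The authors' deposited table gives log2 fold changes of 4.31 and -0.31 for Cbln4.

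The cerebellin genes have related coding sequences, so these sequences were compared with each other. Coding sequences of GENCODE M21 (GRCm38) were identical at 74.4% of aligned bases between Cbln1 and Cbln2, at 70.2% between Cbln1 and Cbln4 and at 73.9% between Cbln2 and Cbln4. The longest identical run between the transcripts of any pair of these 3 genes was 21 bases. The 60 coding bases in which Cbln1 and Cbln4 are most alike are shown, as a stretch where a read could be taken for the other gene. By coding identity these 2 are the least alike pair of the 3 genes. Bases outside the coding sequence were not searched for such a stretch. Capitals mark the 8 bases that differ, and the stretches run from base 64 to 123 in Cbln1 and from base 73 to 132 in Cbln4, counted from the A of the start codon.
Cbln1: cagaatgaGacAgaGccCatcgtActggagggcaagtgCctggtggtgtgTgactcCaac
Cbln4: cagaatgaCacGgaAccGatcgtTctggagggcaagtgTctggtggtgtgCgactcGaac
The 2 genes differ even there. Cbln2 and Cbln4, the pair that shares the run of 21 bases, are more alike in coding sequence and had a like course. Their most alike stretch is not shown. Whether reads were mixed between any of these genes was not tested.

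The remaining cerebellin, Cbln3, which in the cerebellum is made by granule cells and assembles with Cbln1, went the opposite way. Its level was 1.45, 1.15 and 1.6 CPM in PP, 1.06, 1.2 and 1.06 CPM in DP, and 0.726, 0.508 and 0.592 CPM in Neuron, in the library order used above. PP and DP overlapped, and every Neuron library was lower. The difference from PP to DP did not pass the test (log2 -0.34, edgeR adjusted p = 0.224). Cbln3 then fell 1.82-fold from DP to Neuron (edgeR adjusted p = 0.00495, with 34.2% of features called lower) and stood 2.3-fold lower in Neuron than in PP (edgeR adjusted p = 0.00039, with 38.6% of features called lower).

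Per length of exon, the cerebellin make-up of the fractions differed. In CPM per kb of exon, the summed level of the 4 cerebellins was 1.16 ± 0.393 in PP, 5.3 ± 0.681 in DP and 15.8 ± 0.981 in Neuron (SD, n = 3). In PP the share of Cbln1 in that level was 54.7% ± 1.91, that of Cbln3 27.4% ± 9.63, that of Cbln2 16.9% ± 11.3 and that of Cbln4 1.03% ± 0.897. In DP Cbln2 made up 69.7% ± 0.983 and Cbln1 20.6% ± 0.413. In Neuron Cbln1 made up 72.4% ± 5.59 and Cbln2 25.4% ± 6.07. The largest share thus passed from Cbln1 in PP to Cbln2 in DP and back to Cbln1 in Neuron, in all 3 libraries of each fraction. Cbln2 was chosen by its level in DP, so these shares carry no test, and the share of Cbln1 holds the uncertainty of its 2 overlapping identifiers.

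**Figure D3:**
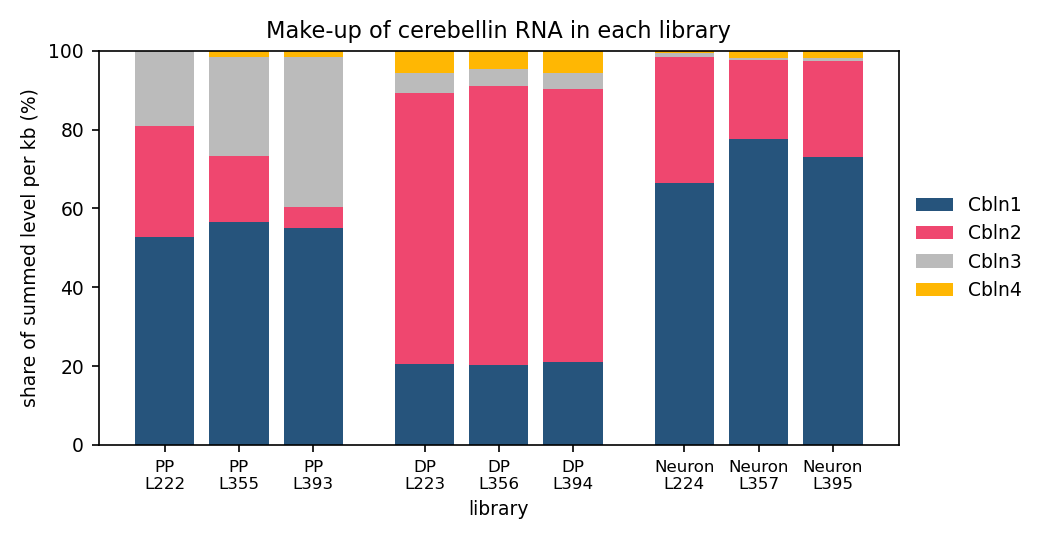
Share of each cerebellin in the summed level per kb of exon (y axis, percent) in each of the 9 libraries (x axis, grouped by fraction). Bars are stacked to 100%, with Cbln1 in blue, Cbln2 in pink, Cbln3 in grey and Cbln4 in yellow. Cbln2 takes 68.9% to 70.8% in the DP libraries, and Cbln1 takes 66.5% to 77.7% in the Neuron libraries.

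Grid1 (ENSMUSG00000041078), the receptor gene, spans 763555 bases of chromosome 14, from 35633011 to 36396565 on the plus strand in mm9, with 17 exons that sum to 6094 bases. Its level was 5.72, 5.7 and 5.94 CPM in the PP libraries L222, L355 and L393. It was 4.78, 4.36 and 3.47 CPM in the DP libraries L223, L356 and L394, and 8.57, 8.51 and 7.98 CPM in the Neuron libraries L224, L357 and L395. All DP libraries were below all PP libraries, all Neuron libraries were above both, and the spread was widest in DP, where L394 was lowest. Means were 5.79 ± 0.131, 4.2 ± 0.667 and 8.36 ± 0.323 CPM (SD, n = 3).

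Grid1 fell 1.38-fold from PP to DP (log2 -0.46 ± 0.13 SE, edgeR adjusted p = 0.016), in a comparison in which 20.2% of features were called lower in DP. This call rested on DP library L394: without it the log2 difference was -0.34 and the edgeR adjusted p was 0.0609. From DP to Neuron Grid1 rose 1.99-fold (log2 0.99 ± 0.13, edgeR adjusted p = 3.52e-05). Neuron stood 1.44-fold above PP (log2 0.53 ± 0.13, edgeR adjusted p = 0.00282). The authors' deposited table gives log2 fold changes of -0.46 and 1.01 for Grid1. In contrast to Cbln2 and Cbln1, Grid1 did not follow the order of the neuron marker sum within PP or within DP. Neither did Cbln4, at 0, 0.0427 and 0.0411 CPM in PP and 0.753, 0.775 and 0.892 CPM in DP. Each of these orders rests on 3 libraries.

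**Figure D4:**
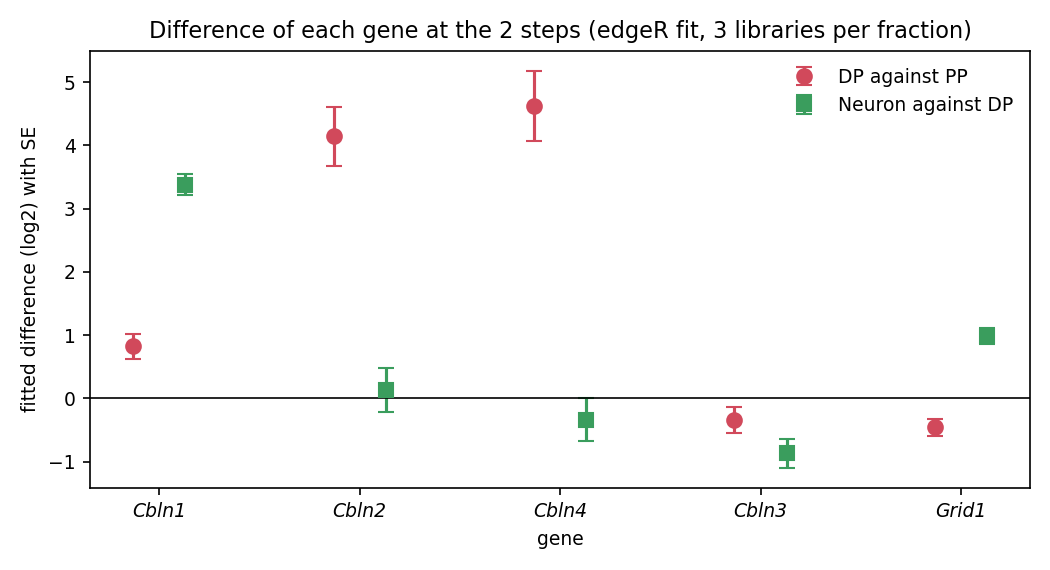
Fitted log2 difference with its SE (y axis) for the 4 cerebellin genes and for Grid1 (x axis), for DP against PP (red circles) and Neuron against DP (green squares), 3 libraries per fraction. Both differences of a gene share the DP libraries. Cbln2 and Cbln4 lie at 4.14 and 4.62 from PP to DP and near 0 from DP to Neuron, Cbln1 lies at 0.82 and 3.38, and Grid1 lies at -0.46 and 0.99.

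The order of the members by level per kb of exon changed from fraction to fraction. In PP, Grid1 led at a mean of 0.949 CPM per kb, ahead of Cbln1 at 0.629, Cbln2 at 0.222 and Cbln4 at 0.00963. The ranges over PP libraries did not overlap between Cbln1 (0.491 to 0.848) and Cbln2 (0.0497 to 0.455). In DP, Cbln2 led at 3.7 CPM per kb (range 3.12 to 4.13), followed by Cbln1 at 1.09 (0.924 to 1.18), Grid1 at 0.69 (0.57 to 0.784) and Cbln4 at 0.278 (0.26 to 0.308). In Neuron, Cbln1 led at 11.4 CPM per kb (11.2 to 11.6), followed by Cbln2 at 4.04 (2.96 to 5.37), Grid1 at 1.37 (1.31 to 1.41) and Cbln4 at 0.219 (0.113 to 0.284). No neighbours among the 4 overlapped in any fraction. Cbln3 overlapped Cbln2 in PP (Cbln3 at 0.244 to 0.339 CPM per kb) and Cbln4 in Neuron (Cbln3 at 0.108 to 0.154 CPM per kb).

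Measured against all 18143 annotated genes tested, these were low to moderate levels. The median gene stood at 5.69, 5.75 and 5.47 CPM per kb in PP, DP and Neuron. Only Cbln1 in Neuron passed that median, at percentile 65.7, up from 20.3 in PP and 26.3 in DP. Cbln2 moved from percentile 10.6 to 42.0 and 44.7, Cbln4 from 0.865 to 13.0 and 12.7, and Grid1 from 24.4 to 21.6 and 30.5.

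Relative to its receptor gene, the level of Cbln1 per kb of exon was 0.664 ± 0.211 times that of Grid1 in PP, 1.62 ± 0.432 times in DP and 8.32 ± 0.356 times in Neuron (SD, n = 3). The ratio of Cbln2 to Grid1 per kb was 0.236 ± 0.223 in PP, with a range of 0.051 to 0.484 and L222 highest, 5.49 ± 1.39 in DP and 2.95 ± 0.851 in Neuron. Ligand RNA per kb thus exceeded Grid1 RNA per kb in DP and Neuron for both genes and in PP for neither.

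Genes of neurexins and of netrin receptors that bind cerebellins rose with differentiation, though not all mainly at the same step. The 4 genes of this list reported here passed as higher in DP than in PP (median log2 difference 0.78, against -0.02 over all features), in Neuron than in DP (median 2.27, against -0.04) and in Neuron than in PP. The shares of all features called higher were 21.3%, 33.1% and 36.7%. Nrxn2, a neurexin gene, went from 36.6 to 43.7 CPM (1.2-fold, edgeR adjusted p = 0.0133) and to 365 CPM (8.35-fold, edgeR adjusted p = 6e-11). Nrxn3, another neurexin gene, went from 1.89 to 4.46 CPM (2.41-fold, edgeR adjusted p = 0.00223) and to 70.2 CPM (15.7-fold, edgeR adjusted p = 2.4e-08). Both, like Cbln1, thus had their larger difference between DP and Neuron.

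Dcc, a netrin receptor that binds Cbln4, had its larger difference at the step where Cbln4 had its own. It rose 11.2-fold from 17.9 ± 4.12 CPM in PP to 201 ± 32.3 CPM in DP (edgeR adjusted p = 2.95e-07) and 2.04-fold to 410 ± 70.8 CPM in Neuron (edgeR adjusted p = 0.000185). Neo1, which encodes neogenin, went from 175 to 214 CPM (1.23-fold, edgeR adjusted p = 0.00609) and to 595 CPM (2.77-fold, edgeR adjusted p = 6.16e-09).

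The C1q-like genes C1ql1 and C1ql3 encode secreted relatives of the cerebellins, and Bai3 encodes the adhesion receptor these bind. Of the 5 genes on this list, 3 could be tested, since C1ql2 had 11 reads and C1ql4 32 reads in all 9 libraries, and their median log2 differences were -0.46 from PP to DP and 1.31 from DP to Neuron. Bai3 had the same pattern of calls as Grid1: it fell 1.37-fold from 37.9 ± 1.28 CPM in PP to 27.6 ± 2.28 CPM in DP (edgeR adjusted p = 0.000688) and rose 2.48-fold to 68.4 ± 3.55 CPM in Neuron (edgeR adjusted p = 3.23e-08). C1ql1 fell 1.89-fold from 1.95 to 1.04 CPM from PP to DP (edgeR adjusted p = 0.0111) and stood at 0.661 CPM in Neuron (edgeR adjusted p = 0.0538 against DP). C1ql3 had 0.16 CPM in PP, 0.266 CPM in DP (edgeR adjusted p = 0.166) and 5.56 CPM in Neuron, a 20.7-fold rise over DP (edgeR adjusted p = 2.95e-08).

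Scaffold and signalling partners of delta receptors rose mainly from DP to Neuron. Of the 10 genes reported here, 6 passed as higher and 2 as lower in DP than in PP (median log2 difference 0.37), against 21.3% and 20.2% of all features. From DP to Neuron 8 passed as higher and none as lower (median 1.59, against 33.1% and 34.2% of features), and from PP to Neuron all 10 passed as higher, against 36.7%. Dlg2, a postsynaptic scaffold, had the highest difference from PP to DP, from 1.1 to 2.88 CPM (2.63-fold, edgeR adjusted p = 4.87e-05), and Shank1, another scaffold, the lowest, from 35.5 to 28.6 CPM (1.24-fold lower, edgeR adjusted p = 0.0215). From DP to Neuron the highest was Grm5, a metabotropic glutamate receptor, from 0.358 to 28.9 CPM (80.8-fold, edgeR adjusted p = 1.31e-10). The lowest that passed was the phosphatase gene Ptpn4, from 72.9 to 95.2 CPM (1.31-fold, edgeR adjusted p = 0.00651). Against PP, Neuron differed most for Grm5 (log2 7.29, edgeR adjusted p = 5.25e-11) and least for the autophagy gene Becn1 (1.18-fold, edgeR adjusted p = 0.01).

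**Figure D5:**
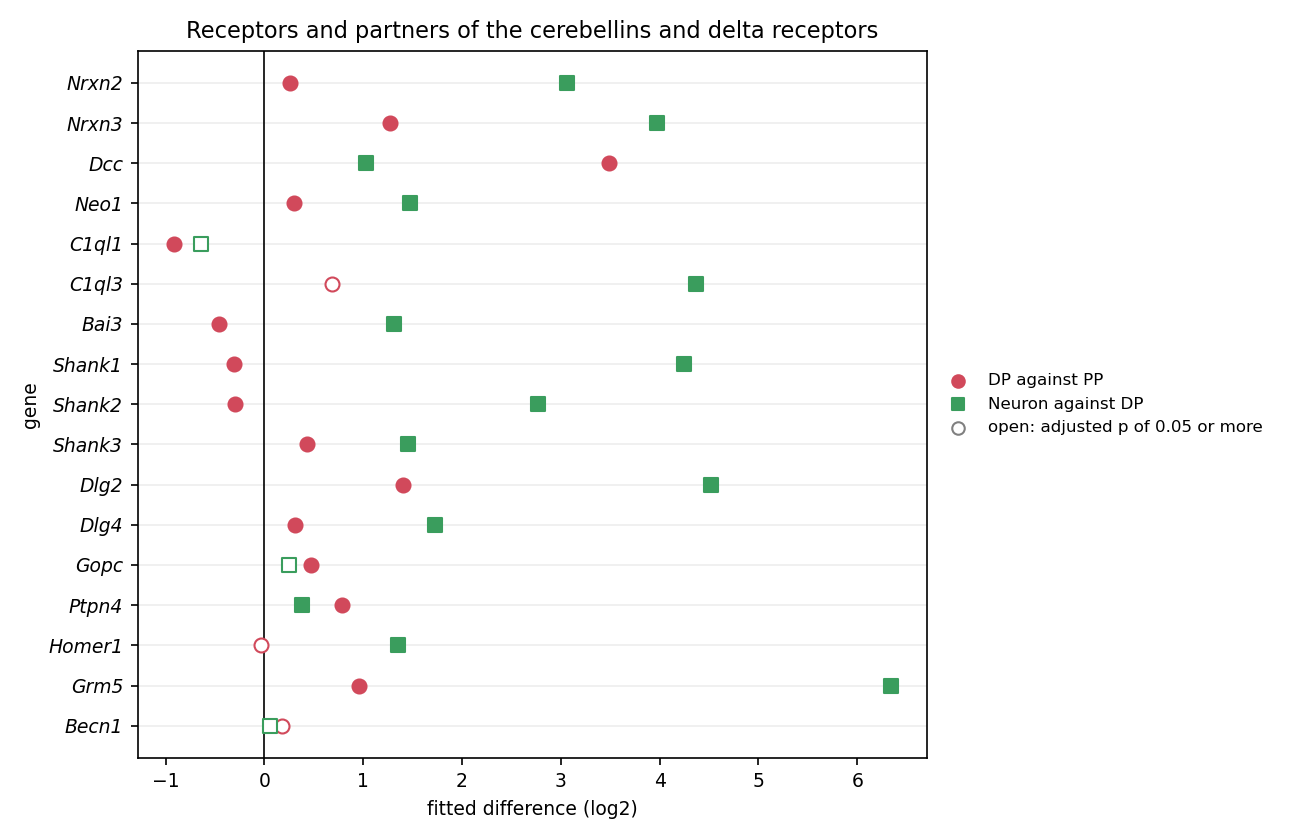
Fitted log2 difference (x axis) of the neurexin and netrin receptor genes, the C1q-like genes with Bai3 and the scaffold and signalling partners of delta receptors (y axis, 1 row per gene), for DP against PP (red circles) and Neuron against DP (green squares). Open symbols did not pass an adjusted p of 0.05. Most genes have the larger difference from DP to Neuron, with Dcc at 11.2-fold from PP to DP and 2.04-fold after it among the exceptions.

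Besides the secreted cerebellins, neurexins have postsynaptic ligands. The 8 genes of such ligands reported here (neuroligins, leucine-rich repeat transmembrane proteins and the calsyntenin gene Clstn3) rose from DP to Neuron without exception. From PP to DP 3 passed as higher and 1 as lower (median log2 difference 0.09), and from DP to Neuron (median 1.82) and from PP to Neuron all 8 passed as higher. Of all features, 21.3% passed as higher and 20.2% as lower from PP to DP, and 33.1% and 36.7% passed as higher in Neuron than in DP and PP. Lrrtm4 rose 3.59-fold from 0.879 to 3.18 CPM between PP and DP (edgeR adjusted p = 0.000387), while Nlgn3 fell 1.55-fold from 151 to 97.7 CPM (edgeR adjusted p = 3.01e-05). From DP to Neuron the differences that passed ran from 2.31-fold for Nlgn1 (edgeR adjusted p = 4.61e-08) to 16.4-fold for Lrrtm3 (edgeR adjusted p = 2.81e-09). From PP to Neuron they ran from 1.57-fold for Nlgn3 to 37.9-fold for Lrrtm4.

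Secreted synapse organisers of other families passed the test in both directions. Of 8 genes, 3 passed as higher and 3 as lower in DP than in PP (median log2 difference 0.03), 5 as higher and 1 as lower in Neuron than in DP (median 1.85), and 5 as higher and 3 as lower in Neuron than in PP. Over all features the shares called higher and lower were 21.3% and 20.2% from PP to DP, 33.1% and 34.2% from DP to Neuron, and 36.7% and 38.6% from PP to Neuron. The neuronal pentraxin gene Nptx2 had its highest level in DP: it rose 6.02-fold from 1.6 to 9.66 CPM between PP and DP (edgeR adjusted p = 4.17e-07), but fell 4.34-fold to 2.22 CPM in Neuron (edgeR adjusted p = 1.22e-07). Sparcl1, a secreted protein of glia in the mature brain, fell 4.94-fold from 20.4 to 4.13 CPM between PP and DP (edgeR adjusted p = 6.27e-07), then rose 8.03-fold to 33.1 CPM in Neuron (edgeR adjusted p = 6.7e-09). Lgi1, which encodes a secreted ligand of synaptic adhesion proteins, rose 71.6-fold from 0.167 to 11.9 CPM between DP and Neuron (edgeR adjusted p = 6.29e-09) and stood above PP by 7.39 on the log2 scale (edgeR adjusted p = 2.47e-09). Its relative Lgi2 was 2.44-fold lower in Neuron than in PP (edgeR adjusted p = 1.81e-05).

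Likeness to each member was measured as the root mean square difference in log2(CPM + 0.5), centred on each gene's mean over the 9 libraries, among the other tested genes with a mean of at least 1 CPM (14813 to 14815, depending on the member). All genes were measured in the same 9 libraries and over the same fractions, so likeness and r describe these profiles only. Nearest to Cbln1 were E130309D14Rik (difference 0.108, Pearson r 0.998), Camk1g, a calmodulin-dependent kinase (0.126, r 0.997), and Pcnxl2 (0.134, r 0.997). Camk1g had 3.05, 4.37 and 46.1 CPM in PP, DP and Neuron. Nearest to Cbln2 were Igsf21, an adhesion protein gene (0.215, r 0.992), 6430704M03Rik (0.261, r 0.993) and Atp2b2, a plasma membrane calcium pump (0.265, r 0.993). Igsf21 had 2.44, 34.0 and 28.6 CPM.

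Nearest to Cbln4 were Gm12737 (0.194, r 0.948), Ccng2, an unconventional cyclin (0.194, r 0.947), and C2cd4c (0.203, r 0.942). These differences are small partly because the added 0.5 CPM damps the change of a gene as low as Cbln4: Ccng2, at 79.8 CPM in PP and 173 CPM in DP, changed far less than Cbln4 did. Nearest to Grid1 were Slc35e4 (0.0682, r 0.985), Glrb, a glycine receptor subunit (0.0756, r 0.989), and Gab1, a signalling adaptor (0.0758, r 0.987). Glrb had 14.9, 11.1 and 19.9 CPM, again lowest in DP. Among the members themselves, every pair was further apart than these neighbours. The least distant pair was Cbln4 and Grid1 (difference 0.759, r -0.14), whose changes on this scale are small, and the most distant was Cbln2 and Grid1 (1.71, r 0.05). By Pearson r, Cbln2 and Cbln4 were the most alike pair (r 0.87, difference 1.2), followed by Cbln1 and Grid1 (r 0.76, difference 1.4). The added 0.5 CPM damps the change of Cbln4 in these differences too.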

How the data were processed

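Poly-A RNA of sorted cells was sequenced as 9 libraries, each in a single-read and a paired-end run, which make up the 18 samples of the labels. The authors deposited whole-number counts per gene and run, with 37620 annotated genes and 630 unannotated transcripts. The submitters' processing notes name, with no role or order, the build mm9, featureCounts 1.4.4, TopHat2 2.0.10, BWA 0.5.9-r16, Bowtie2 2.2.1, bcl2fastq 1.8.2, Cufflinks 2.1.1, DESeq2 1.4.5, DESeq and bedtools 2.16.2. The sources used here do not say whether strand was used in counting. A normalised signal per library also stands in the comparison tables the authors deposited, and it equalled the added counts divided by a size factor within 0.06 for 159605 of 159606 values (DP and PP) and 159602 of 159606 (Neuron and DP). These deposited tables give log2 fold changes, their p-value and adjusted p, and a score (standard error and test statistic) per gene, per the file headers.

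Count columns were tied to fractions by name. Both runs of a library were added as 1 replicate. Fractions were compared with edgeR 4.0.16 (limma 3.58.1, R 4.3.3): after filterByExpr and TMM scaling, all 9 libraries entered 1 quasi-likelihood fit with a term for fraction, and p-values were adjusted by Benjamini-Hochberg over 18627 features, with a threshold of 0.05. Alternatives included DESeq2 1.42.0. Total counts were 34337209 to 43520336 in PP, 39836073 to 50535080 in DP and 42840710 to 55935128 in Neuron. Levels are CPM, and levels between genes are CPM per kb of deposited exon length. Where a gene was lower, its fold is given inverted. Members, lists and markers were chosen with earlier results of these data known. The text names the members and every gene of 4 lists: cerebellins, delta receptors, C1q-like genes with Bai3, and neurexins with netrin receptors. Of the other lists it names the genes with the highest and lowest difference among those called in a contrast. It also names the 3 genes most like each member, and the neuron markers Dcx and Tubb3 by library. Of 7 neuron markers, Map2 did not match by symbol. Some genes of the lists are not reported here and were left out of the list counts.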

Additional observations from a re-analysis of the deposited data

How the results depend on the processing

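The differences of Cbln1, Cbln4 and Grid1 were recomputed under 16 alternatives each: other size factors in edgeR, DESeq2, no filter on low counts, each kind of run alone, a fit of the 2 fractions alone, each of the 9 libraries left out, and L222, L223 and L224 left out together. Of 144 values, 143 kept their direction and their side of the threshold. The exception was Grid1 from PP to DP without DP library L394 (log2 -0.34, edgeR adjusted p = 0.0609). Leaving out 1 library at a time gave log2 differences of -0.54 to -0.34 for this result. Over all alternatives Cbln1 ran from 0.67 to 1.19 and from 3.28 to 3.45 at the 2 steps, and Cbln4 from 4.18 to 4.96 and from -0.56 to -0.03. Cbln2, whose alternatives were chosen after seeing the data, ran from 3.64 to 5.24 and from -0.23 to 0.31. Counts of features called ran from 6199 to 8008 for DP against PP, 10829 to 13045 for Neuron against DP and 12203 to 15156 for Neuron against PP, all within 1.5 times of the reported counts. No paired analysis was possible because the columns of the count tables show no replicate number of the labels. The library numbers run on from fraction to fraction, but no label says what they mark. They served to leave out L222, L223 and L224 together, but not to pair libraries in a fit. Depth limits Cbln4 most, with 4 reads in PP.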
